A study of Mus musculus with 9 samples.

Results

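The genes described here are Nedd4, 5 related ligase genes of the NEDD4 family (Nedd4l, Wwp1, Wwp2, Smurf1 and Smurf2) and 2 genes for membrane adaptors of these ligases (Ndfip1 and Ndfip2). They are 8 of the 16921 genes in a ribosome profiling (RiboSeq) experiment on mouse macrophages. Nedd4 was chosen by its measured ribosome occupancy, which changed most between conditions, and the other 7 because they belong to the same family or bind it. The values of Nedd4 are therefore a description and carry no test. The related ligase gene Itch is not described here.

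NEDD4-type ligases attach ubiquitin to other proteins. Each carries a C2 domain that binds membranes, several WW domains that bind short proline- and tyrosine-containing (PY) motifs, and a catalytic HECT domain, which takes ubiquitin onto its own cysteine before passing it on. The adaptors Ndfip1 and Ndfip2 sit in endosomal and Golgi membranes, hold PY motifs and bring ligase and substrate together. Ubiquitin placed by these ligases on membrane receptors, channels and transporters commonly sends them to endosomes and lysosomes.

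All 9 libraries came from bone marrow-derived macrophages (BMDMs) that lack TTP, the RNA-binding protein encoded by Zfp36, which binds AU-rich elements in 3′UTRs. The cells had been immortalized with the oncogenes hcmyc and hRasG12V. They were then transduced with a tet-inducible retroviral vector for GFP alone, for GFP-TTP, or for GFP-TTP-AA, a mutant without the serines that the kinase MK2 phosphorylates, and sorted for GFP. Every culture received doxycycline (1 µg/ml) for 6 h and LPS (1 µg/ml) for 1 h, and each condition had 3 libraries numbered 1 to 3. Each condition is a transduced cell line of its own, so that the line and the expressed protein cannot be told apart, and none of the 9 libraries is from an unstimulated culture.

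The deposited table of normalized counts holds the values that the authors' model fitted for each gene and library, not the observed counts. After a term for condition and a term for replicate number, the residual SD of its log2 values was 1.64e-15. The 3 values of a condition therefore differ only by a replicate-number term that is the same in all 3 conditions, and their distance from each other is not the replicate error. Whether the values of conditions or genes overlap is therefore read neither as a difference nor as the lack of one. The error of each change is the SE in the authors' deposited comparison tables. Each comparison is between 3 and 3 libraries, but all 9 libraries entered the fit and share a dispersion for each gene. A level below is the geometric mean of the 3 fitted values after division by the size factors of the libraries, in scaled footprints. Per library the sum of all fitted values ran from 2570292 to 12804501. For the 8 genes they ran, before scaling, from 23.7 footprints (Smurf2) to 3646 footprints (Nedd4). A gene was called changed at a Benjamini-Hochberg adjusted Wald p under 0.05, over all genes in the comparison's table whose fitted mean reached the minimum of 10, and all 8 genes reached it. The table of GFP-TTP against GFP does not list 161 of the 10099 genes above the minimum, all with a fitted mean of at most 12.8.

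The labels were checked on Zfp36. Its level was 458 in GFP cells, 924 in GFP-TTP cells and 1531 in GFP-TTP-AA cells. Reads of the transgene and of what is left of the endogenous gene were not separated. Among macrophage markers, Emr1 was present in all conditions at 3652, 2282 and 5327 scaled footprints in the same order. Its protein is a surface antigen used to define mouse macrophages. The summed level of the 8 listed markers in the table was 93416, 73676 and 106215. Lyz2 made up most of that sum, at 63834, 45842 and 71193. Of the 7 markers tested, 3 fell with GFP-TTP against GFP (Emr1, Lyz2 and Fcgr1), or 42.9%, where 2.09% of all genes were called. The same 3 were higher when GFP-TTP-AA was compared with GFP-TTP (42.9%; all genes 10.2%). In GFP-TTP-AA against GFP, 1 of the 7 was called, Emr1, which was higher (14.3%; all genes 3.03%). These 3 genes thus moved opposite to Nedd4 in the 2 comparisons that hold GFP-TTP, and their part in the values below was not tested. Itgam, Cd14, Csf1r and Cd68 were called in no comparison. For GFP-TTP against GFP, Itgam and Cd14 were slightly higher (log2 fold change 0.10 and 0.11) and Csf1r and Cd68 slightly lower (−0.17 and −0.12). In bulk cultures, fewer cells of a kind and less RNA per cell cannot be told apart. Mertk was below the minimum, at 4.64 to 5.42. The 5 markers of B cells, epithelium, fibroblasts and endothelium in the table were each under 1 scaled footprint, with a summed level between 2.42 and 2.44.

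TTP recognises the AU-rich heptamer TATTTAT and the shorter ATTTA, and 5 of the 8 genes carry the heptamer once in the 3′UTR of their GENCODE transcript. These are Nedd4, Nedd4l, Wwp1, Smurf2 and Ndfip2. The site is shown with 10 bases on either side for Nedd4, which changed, and for 3 of the genes that hold the same heptamer and were not called. That of Nedd4l, which was not called either, is not shown. The sequences are from GRCm38 and read 5′ to 3′ on the mRNA strand, with the heptamer in capitals. They are given in this order: Nedd4 at chr9:72749634-72749660 (+), Wwp1 at chr4:19611527-19611553 (−), Smurf2 at chr11:106822620-106822646 (−) and Ndfip2 at chr14:105308695-105308721 (+).
Nedd4: ttttcgatttTATTTATaccgctcgag
Wwp1: ttttctacttTATTTATtgttcccttt
Smurf2: ctacagctctTATTTATtccctggcca
Ndfip2: ttagatcttaTATTTATttacatttaa

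The motifs were searched on the mRNA strand only, overlapping matches were counted, and each TATTTAT also holds 1 ATTTA. The heptamer of Nedd4 begins at base 2416 of a 3′UTR of 2624 bases, which holds 5 ATTTA. Of 1235 genes with a 3′UTR within 20% of that length, 45.8% hold the heptamer, and their median is 4 ATTTA. Ndfip2 has the most ATTTA of the 8 genes, 10 in 1415 bases, where genes of similar length have a median of 2. Wwp1 follows with 9 in 3411 bases (similar length, 5). Smurf1 holds 3 ATTTA and no heptamer, and Wwp2 and Ndfip1 hold neither motif. Over all 9891 genes above the minimum with a 3′UTR, 28.8% have the heptamer and 68.2% at least 1 ATTTA. Per kb of 3′UTR, Nedd4 has 1.91 ATTTA, fewer than Ndfip2 (7.07), Smurf2 (4.69), Nedd4l (3.86) and Wwp1 (2.64) and more than Smurf1 (1.05). A match says nothing about binding in these cells.

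Nedd4 (ENSMUSG00000032216, chr9:72662346-72749852, + strand, GRCm38) encodes the founding member of the family, a ligase known for the ubiquitination of growth factor receptors. Its scaled fitted values were 132, 141 and 146 with GFP. They were 1858, 1981 and 2051 with GFP-TTP. With GFP-TTP-AA they were 463, 493 and 511. The level was lowest with GFP, intermediate with GFP-TTP-AA and highest with GFP-TTP.

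From these values Nedd4 was 14.0-fold higher with GFP-TTP than with GFP (log2 fold change 3.81, SE 0.17, 95% interval 3.48 to 4.14, n = 3 libraries each). The interval makes no allowance for the choice of Nedd4 by its change and is no test. With GFP-TTP-AA it was 3.50-fold higher than with GFP (1.81, SE 0.17). The ratio of GFP-TTP-AA to GFP-TTP was 0.249 (log2 fold change −2.01, SE 0.16). Ranked by the size of the change, Nedd4 stood at place 1 of 9938 genes for GFP-TTP against GFP. It stood at place 6 of 10099 for GFP-TTP-AA against GFP and at place 23 of 10099 for the comparison of both TTP forms. No gene above the minimum had a larger distance between its highest and its lowest condition.

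The deposited changes are shrunken toward 0 by the model, so that fold changes are understated. The amount can differ between genes, so that the places above hold for shrunken changes only. The mean of the fitted values of Nedd4, 864, was 89.6% of the deposited mean of its observed scaled counts, 965. Only 166 of 10099 genes had a lower share, and the other 7 genes here lay between 99.2% and 100.4%. The fit thus falls short of the observed mean for Nedd4 and hardly for its relatives. How the observed counts were divided over the 9 libraries cannot be read from fitted values.

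**Figure D1:**
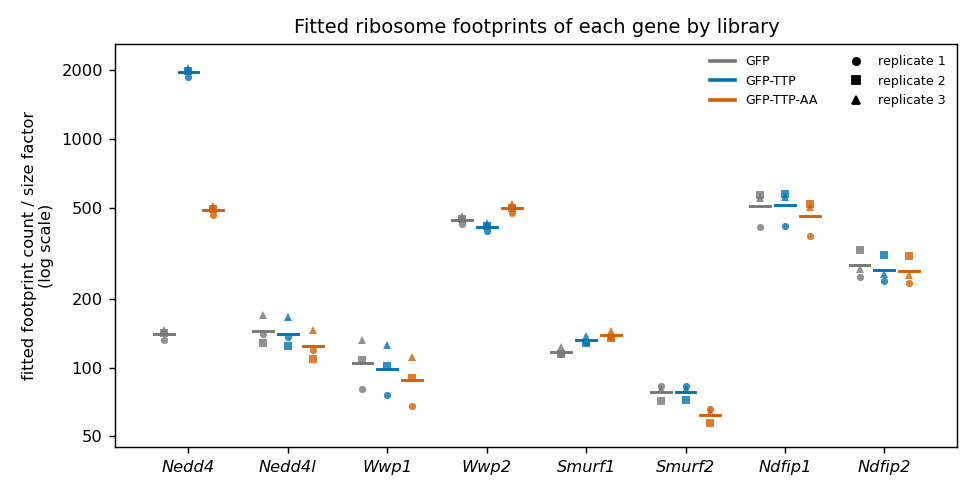
Fitted footprint counts divided by the size factor of the library (log axis) for the 8 genes, with GFP in grey, GFP-TTP in blue and GFP-TTP-AA in orange; the symbols are the 3 libraries of a condition, and the bars are the geometric means. Nedd4 lies at 140 (GFP), 1962 (GFP-TTP) and 489 (GFP-TTP-AA), and the bars of Smurf2, the lowest gene, lie at 78.2, 78.3 and 62.2; the distance between symbols of 1 condition is the fitted replicate-number term and not the replicate error.

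The relatives of Nedd4 were not called. In GFP-TTP against GFP, 0 of these 5 ligases and 2 adaptors were called, where 2.09% of all tested genes were. The same count was 0 of 7 for GFP-TTP-AA against GFP, with 3.03% of all genes called, and 0 of 7 for GFP-TTP-AA against GFP-TTP, with 10.2% called. None of the 7 had an unadjusted Wald p under 0.05 in any of the 3 comparisons. With so few genes, 0 of 7 is near these background shares and no result in itself. The median change of the 7 was −0.04, −0.14 and −0.15 (log2) in the 3 comparisons, beside 0.00, 0.01 and 0.01 over all genes, whose SDs were 0.26, 0.27 and 0.35. With the SEs of these 7 genes, a shrunken change had to reach 1.40-fold to 1.69-fold to be called in GFP-TTP against GFP. It had to reach 1.33-fold to 1.57-fold in GFP-TTP-AA against GFP-TTP. Smaller shrunken changes could not be called, and before shrinkage the change needed was larger.

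Nedd4l (chr18:64887705-65217828, + strand) is the closest relative of Nedd4 and is known for the removal of the epithelial sodium channel from the cell surface. Its scaled values were 140, 128 and 171 with GFP, 136, 124 and 166 with GFP-TTP, and 120, 110 and 146 with GFP-TTP-AA. The log2 fold change was −0.04 (SE 0.20; 95% interval −0.43 to 0.35) with GFP-TTP and −0.22 (SE 0.20; −0.61 to 0.17) with GFP-TTP-AA, both against GFP. With GFP, Nedd4 and Nedd4l had levels of 140 and 145, and with GFP-TTP the relative was at 141.

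Wwp1 (chr4:19608303-19708993, − strand) and Wwp2 (chr8:107436365-107558595, + strand) encode ligases with WW domains that act, among others, on transcription factors. Wwp1 had scaled values of 80.8, 107 and 132 with GFP, 76.3, 101 and 125 with GFP-TTP, and 68.0, 90.5 and 111 with GFP-TTP-AA. It had the largest replicate-number term of the 8 genes, 0.71 (log2) for replicate 3 against 1. Its log2 fold change was −0.08 (SE 0.23) with GFP-TTP and −0.25 (SE 0.23) with GFP-TTP-AA, both against GFP. Wwp2 was the ligase with the most footprints in GFP cells, at 424, 445 and 460, and had 396, 415 and 430 with GFP-TTP. With GFP-TTP-AA it had 476, 499 and 517. The condition order of Wwp2 was thus opposite to that of Nedd4 for the TTP forms, with a log2 fold change of 0.27 (SE 0.15; 95% interval −0.02 to 0.55) for GFP-TTP-AA against GFP-TTP. Its adjusted p of 0.279 was the smallest of the 7 genes, and the change was not called.

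Smurf1 (chr5:144876495-144965847, − strand) and Smurf2 (chr11:106820066-106920715, − strand) encode ligases known for limiting TGF-β signalling through SMAD proteins and the receptor. Smurf1 had scaled values of 115, 114 and 123 with GFP, 129, 129 and 138 with GFP-TTP, and 136, 135 and 145 with GFP-TTP-AA. It was the one ligase besides Nedd4 with a higher level in both TTP conditions than with GFP, by 0.17 (SE 0.20, adjusted p = 0.83) and 0.24 (SE 0.20, adjusted p = 0.661) on the log2 scale. Smurf2 had the fewest footprints, at 82.8, 71.8 and 80.5 with GFP and 82.9, 71.9 and 80.6 with GFP-TTP. With GFP-TTP-AA its values were 65.8, 57.0 and 64.0. The log2 fold change of Smurf2 was −0.33 (SE 0.22; 95% interval −0.77 to 0.11) for GFP-TTP-AA against GFP and −0.33 (SE 0.22) against GFP-TTP, neither of which was called (adjusted p = 0.554 and 0.401).

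The adaptor Ndfip1 (chr18:38410396-38465303, + strand) recruits and activates several NEDD4-type ligases, for example toward the iron transporter encoded by Slc11a2. Its scaled values were 412, 571 and 553 with GFP, 416, 576 and 559 with GFP-TTP, and 374, 519 and 503 with GFP-TTP-AA. Ndfip2 (chr14:105258573-105309298, + strand), its paralog, had 250, 326 and 270 with GFP, 238, 311 and 257 with GFP-TTP, and 235, 307 and 254 with GFP-TTP-AA. Neither adaptor was called. Against GFP, the log2 fold change of Ndfip1 was 0.01 (SE 0.16) with GFP-TTP and −0.14 (SE 0.16) with GFP-TTP-AA, and that of Ndfip2 was −0.07 (SE 0.18) and −0.09 (SE 0.18). Over all 7 genes, the outermost end of a 95% interval was 1.47-fold for GFP-TTP against GFP and 1.71-fold for either comparison with GFP-TTP-AA. These are intervals of shrunken changes, so that larger changes before shrinkage are not excluded.

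**Figure D2:**
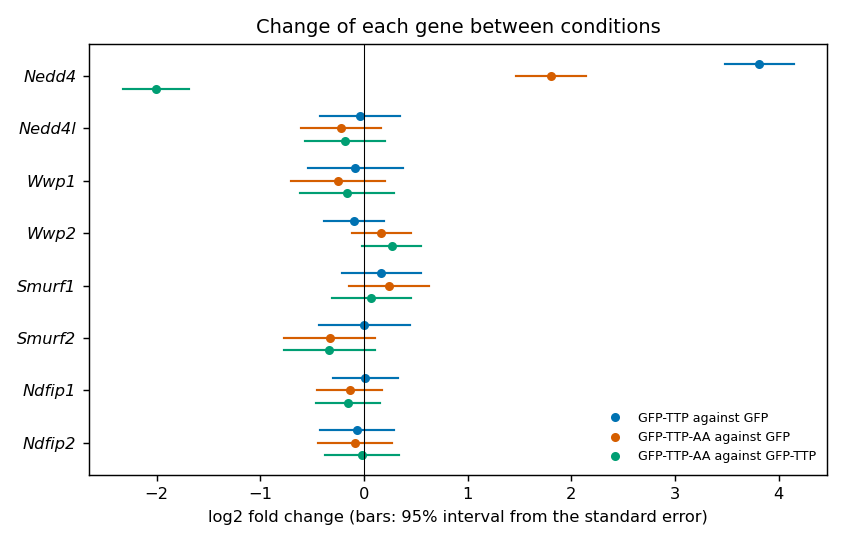
Log2 fold change of the 8 genes in the 3 comparisons, with GFP-TTP against GFP in blue, GFP-TTP-AA against GFP in orange and GFP-TTP-AA against GFP-TTP in green; bars are 95% intervals from the SE in the authors' deposited tables (3 libraries per condition). Nedd4 stands at 3.81, 1.81 and −2.01, and its bars are a description that makes no allowance for its choice by this change. The intervals of the other 7 genes include 0.

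Levels of different genes were compared per kb of coding sequence, since a longer coding sequence holds more ribosomes. With GFP, the order was Ndfip1, Ndfip2 and Wwp2, followed by Smurf1, Nedd4 and Nedd4l, and then Wwp1 and Smurf2. The fitted values of Nedd4 were 49.7 to 54.9 scaled footprints per kb over the 3 libraries, those of Smurf1 52.2 to 55.9 and those of Nedd4l 43.6 to 58.2. Wwp1 had 29.3 to 48.1 and Smurf2 32.0 to 36.9. Wwp2 had 162 to 176, Ndfip2 246 to 321 and Ndfip1 621 to 861. The tables hold no error for a difference between genes, so that this order was not tested. In GFP cells Nedd4 stood at percentile 25.1 of all genes above the minimum with a coding length.

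With GFP-TTP, Nedd4 had 698 to 771 scaled footprints per kb and stood at percentile 84.5. Wwp2 had 152 to 165 there and Ndfip1 628 to 869. With GFP-TTP-AA, Nedd4 had 174 to 192 per kb, at percentile 55.5, and Wwp2 had 182 to 198. Of the summed density of the 6 ligases, Nedd4 held 13.2% in GFP cells, 68.6% in GFP-TTP cells and 34.0% in GFP-TTP-AA cells. The share of Wwp2 ran the other way, at 42.6%, 14.7% and 35.3%. The summed density of the 5 other ligases was 345, 337 and 356 per kb in the same order. The density of both adaptors together over that of the 6 ligases was 2.61, 0.964 and 1.77 in that order. These shares follow from the change that chose Nedd4 and are given as a description.

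**Figure D3:**
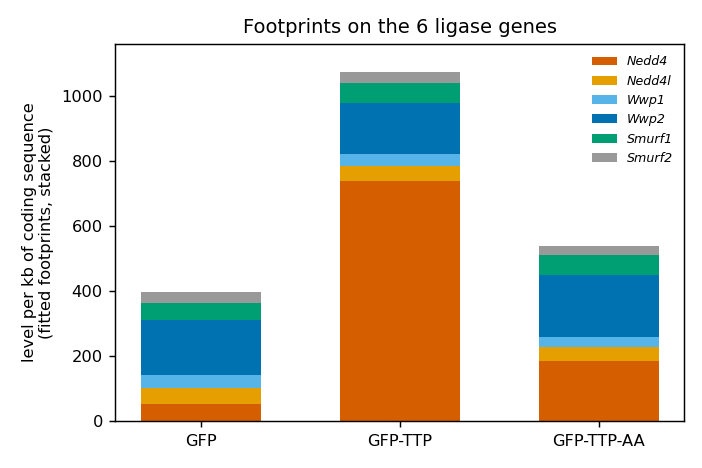
Level per kb of coding sequence (scaled fitted footprints, stacked from 0) of the 6 ligase genes in the 3 conditions; each colour is 1 gene and each bar 1 condition, the level being the geometric mean of 3 libraries. The bars reach 398 (GFP), 1075 (GFP-TTP) and 539 (GFP-TTP-AA), and the Nedd4 segment makes up most of the difference.

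The wider pathway was read from 64 listed genes for enzymes that load ubiquitin, other HECT ligases, adaptors, endosomal sorting factors, substrates and deubiquitinases, of which 57 were tested. In GFP-TTP against GFP, 1 of 57 was called (1.75%; all genes 2.09%). In GFP-TTP-AA against GFP it was 2 of 57 (3.51%; all genes 3.03%), and in GFP-TTP-AA against GFP-TTP 4 of 57 (7.02%; all genes 10.2%). The medians of the 57 changes were 0.01, −0.02 and −0.04 (log2). The share called in the pathway was therefore near that of all genes in each comparison.

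Among 11 adaptors and binding partners tested, N4bp3, which was named for its binding to Nedd4, rose with GFP-TTP from a level of 12.3 to 25.3 (log2 fold change 1.04, SE 0.25, adjusted p = 0.00285). Against this level, GFP-TTP-AA gave 14.8 (−0.78, SE 0.25, adjusted p = 0.0229). Its conditions stood in the same order as those of Nedd4, at a low level close to the minimum, and both calls were lost with a minimum of 50 or a pseudocount of 10. Txnip, an arrestin-like protein with PY motifs that is itself a substrate of Itch, fell with GFP-TTP-AA from 932 to 569 (−0.71, SE 0.16, adjusted p = 0.000942). With GFP-TTP the level of Txnip was 703, which was not called (−0.41, SE 0.16, adjusted p = 0.21).

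Of 15 other HECT ligases tested, 1 was called in both comparisons with GFP-TTP-AA, beside 3.03% and 10.2% of all genes. Ube3a, which encodes the ligase E6AP, fell with GFP-TTP-AA to 526, from 789 with GFP (−0.58, SE 0.15, adjusted p = 0.00599) and from 726 with GFP-TTP (−0.46, SE 0.15, adjusted p = 0.0226). Of 10 ubiquitin-activating and ubiquitin-conjugating enzymes, 2 conjugating enzymes were higher for GFP-TTP-AA against GFP-TTP, where 10.2% of all genes were called. Ube2l3, which encodes UbcH7, a conjugating enzyme that works with HECT ligases, had levels of 493 and 340 (0.54, SE 0.16, adjusted p = 0.0159). Ube2e3 had levels of 214 and 140 (0.61, SE 0.20, adjusted p = 0.0276). The call of Ube2l3 was lost with the median of its chromosome subtracted, and that of Ube2e3 with a pseudocount of 10. None of 10 endosomal sorting genes and none of 11 genes for substrates and deubiquitinases was called in any comparison, which is near the shares of all genes (2.09%, 3.03% and 10.2%) for so few genes.

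**Figure D4:**
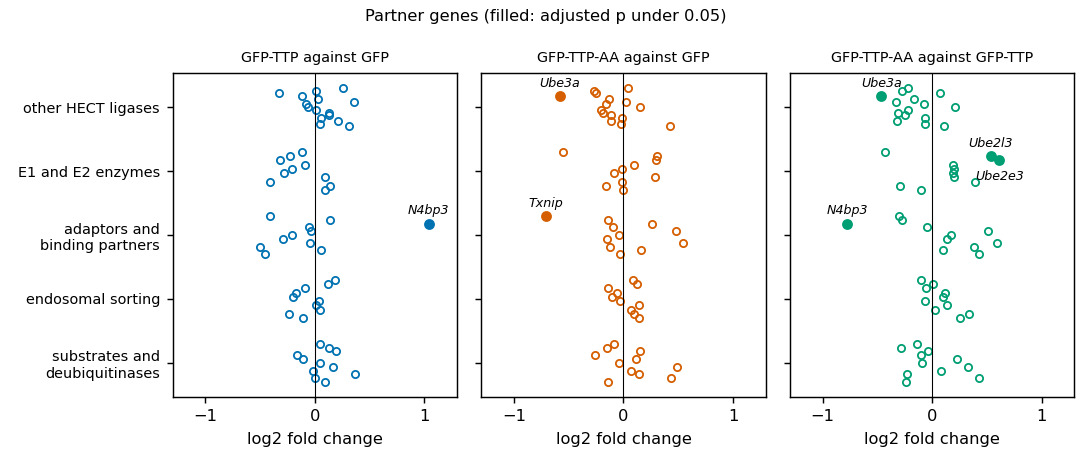
Log2 fold change of the 57 tested pathway genes, 1 circle per gene, in 5 groups (vertical axis) and 3 comparisons (panels); filled circles with a name had an adjusted Wald p under 0.05. N4bp3 at 1.04 is the one filled circle in GFP-TTP against GFP, and no gene of endosomal sorting or of the substrates is filled in any panel.

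Neighbours of Nedd4 on chromosome 9 were read to see whether the change extended along the chromosome. Within 1 Mb, 10 genes passed the minimum. Their median change was 0.08 (log2) for GFP-TTP against GFP, where chromosome 9 as a whole had 0.05, and 0 of 10 were called, near the 2.09% of all genes. The nearest, Rfx7, a transcription factor gene 39.4 kb before Nedd4, had a change of 0.11 (SE 0.19). On the other side, the nearest were Ccpg1os and Ccpg1, at 230 kb and 236 kb, with changes of 0.18 (SE 0.25) and 0.40 (SE 0.24). The change farthest from 0 among the 10 was that of Cgnl1, −0.59 (SE 0.23, adjusted p = 0.227).

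In the comparisons with GFP-TTP-AA, the medians of the 10 neighbours were −0.00 against GFP and −0.08 against GFP-TTP, with 1 and 2 of 10 called beside 3.03% and 10.2% of all genes. Cgnl1, a cell junction gene 891 kb away, was higher for GFP-TTP-AA against GFP (1.00, SE 0.23, adjusted p = 0.00145) and against GFP-TTP (1.58, SE 0.23, adjusted p = 1.08e-09). The direction of Cgnl1 between both TTP forms was opposite to that of Nedd4. Mns1, 200 kb away, was lower for GFP-TTP-AA against GFP-TTP (−0.55, SE 0.19, adjusted p = 0.0414) and had 0.50 (SE 0.19, adjusted p = 0.201) with GFP-TTP against GFP. The other 8 neighbours, Rfx7, Ccpg1, Ccpg1os, Tcf12, Zfp280d, Tex9, Pigb and Rsl24d1, were called in no comparison. Mns1 overlaps Tex9 on the opposite strand, and Ccpg1 overlaps Pigb. Whether the counting used the strand is not given in the sources used here, so that reads of these pairs may be mixed.

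**Figure D5:**
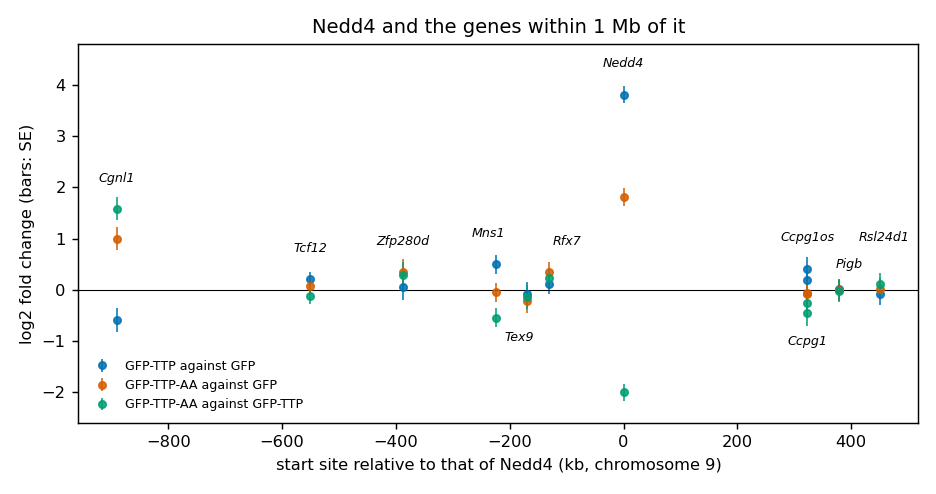
Log2 fold change (vertical axis; bars are SE, 3 libraries per condition) of Nedd4 and the 10 genes within 1 Mb against the distance of their start sites from that of Nedd4 in kb; colours are the 3 comparisons. Nedd4 at 0 kb stands at 3.81 for GFP-TTP against GFP, while the neighbours lie between −0.59 and 0.50 in that comparison.

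The pattern of Nedd4 was set against that of 195 genes whose conditions differed by at least 1 on the log2 scale, by the cosine of the 3 centred condition levels. N4bp3 stood at place 7 (cosine 0.970). The closest were Amz1 (cosine 0.998), Spink5 (0.998), Timp1 (0.997), Atp1b3 (0.992) and Fkbp9 (0.987). Amz1, which encodes a metallopeptidase, had a level of 18.9 in GFP cells, 74.7 in GFP-TTP cells and 33.7 in those with the mutant. Timp1, which encodes an inhibitor of matrix metalloproteinases, had 7.77, 24.3 and 12.4 in the same order. Atp1b3, which encodes a subunit of the sodium pump, was by far the most abundant of the 5, with 5064, 11114 and 6741. Spink5 had 7.32, 15.0 and 10.7, and Fkbp9 had 26.5, 59.9 and 34.8. Over 3 points a cosine near 1 is easily reached, and genes with a high cosine share the order of the conditions with Nedd4 by construction, so that the list is a description. Spink5 and Timp1 were below 10 with GFP and reached the minimum through the other conditions. Atp1b3 lies on chromosome 9 like Nedd4, and the other 4 lie on chromosomes 5, 6, 18 and X.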

How the data were processed

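RiboSeq was analysed in 9 libraries, with groups and replicate numbers from the labels. Ribosome footprints were prepared by the authors with the ARTseq kit and depleted of rRNA. Per the processing notes and the paper's methods, reads were trimmed (Trim Galore), mapped to mm10 (GRCm38) with TopHat2 (2.0.12 in the notes), with up to 2 alignments kept per read, counted per gene (HTSeq) and fitted with DESeq2 1.6.3, with terms for library date and condition. How reads with 2 alignments were counted is not given in the sources used here. The authors' deposited values for the libraries are a signal, the size factor times the fitted mean, and the deposited comparison tables give the mean of observed scaled counts in the same unit. They also hold the log2 fold change and its SE, both shrunken by the authors' model, the deposited Wald statistic (a score), and the deposited p-value with the authors' adjusted p-value.

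Size factors (0.416 to 2.14) were recovered from the fitted values together with the deposited fold changes and means of scaled counts. Fold changes computed from the scaled fitted values equal the deposited ones, in their general level by construction. Because fitted values hold no replicate spread, the SE and Wald p of the authors' tables were used, adjusted here by the Benjamini-Hochberg method over genes whose fitted mean reached 10 (9938 or 10099 genes; threshold 0.05). The tables give no reads per library, but the size factors and the sums of fitted values show that depth differed between libraries. The sum was smallest in library 2 of GFP-TTP-AA (2570292) and largest in library 1 of the same condition (12804501). The largest SE was 0.25. The labels do not say whether the replicates were separate cultures, and p-values measure the spread between libraries, which may be technical. Comparisons share libraries. Coding lengths and 3′UTRs were taken from GENCODE vM21 for the principal transcript of each gene. Python 3.11.15, pandas 2.3.3, numpy 2.4.6 and scipy 1.17.1 were used, and the adjustment was tested on simulated data. The 8 genes and all gene lists were chosen with earlier results of these data known. Named are these 8, listed pathway genes that were called, genes above the minimum within 1 Mb of Nedd4, the 5 genes most like it, Zfp36 and the markers. RNASeq and iCLIP were not used here.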

Additional observations from a re-analysis of the deposited data

How the results depend on the processing

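Changes were recomputed without the minimum, with a minimum of 50, with the median of all genes or of the chromosome subtracted, with equal sums per library, with a pseudocount of 10, and with p-values adjusted over the 3 comparisons together. The count of 0 of 7 relatives called held in each comparison under all of these, with their lowest adjusted p between 0.267 and 0.377. A pseudocount lowers the size of every change while its SE is kept, so that this setting could remove calls but not add any. Nedd4 stayed between 3.72 and 3.81, between 1.74 and 1.81, and between −2.01 and −1.98 (log2). The choice of minimum and the joint adjustment cannot alter a fold change, so that these ranges are a description and no test. The count of called pathway genes fell from 1 to 0 in GFP-TTP against GFP with a minimum of 50 and to 0 with a pseudocount of 10, since N4bp3 was lost. In GFP-TTP-AA against GFP-TTP it fell from 4 to 2 with a pseudocount of 10, where N4bp3 and Ube2e3 were lost. With the chromosome median subtracted, N4bp3 and Ube2l3 lost their calls in that comparison. No paired analysis was possible because the deposited values are fitted and carry no replicate spread. The authors' fit, which gave the SE and p-values used here, already holds a library-date term, seen in the fitted values as a replicate-number term shared by the 3 conditions. Because the values are fitted, no library could be left out in turn, and whether 1 library decides a change of Nedd4 or of another gene cannot be seen in these values. Per the paper's methods, the Cooks filter of DESeq2 for outlying counts was off, so that genes with such a count in 1 library were not set aside.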
